A study of Mus musculus with 4 samples.

Results

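The report follows 8 genes of the sodium pump in kidney tubule fragments of mice fed little or much magnesium. They are the beta subunit genes Atp1b1, Atp1b2 and Atp1b3 and the FXYD genes Fxyd1, Fxyd2, Fxyd4, Fxyd5 and Fxyd6. Their probes were found by gene symbol in the annotation of the array platform, without use of any measured value. This gave 11 of the 39429 probes tested, and 8 of the 21713 genes with a symbol. Atp1b2, Atp1b3 and Fxyd2 had 2 probes each, numbered here from the brighter to the dimmer, and the other 5 genes had 1 probe.

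The low-diet group received a chow with 0.02% magnesium by weight for 15 days, and the high-diet group a chow with 0.48% for the same time. All mice of both groups were B6D2F2 animals, 6 to 8 weeks old at tubule isolation, with a transgene that expresses the green fluorescent protein eGFP under the parvalbumin promoter. The reporter marks the distal convoluted tubule, and 4000 sorted fragments were pooled for each RNA sample. The 8 RNA samples shared 4 arrays, with littermates of different diets in the different dyes of an array. The pairs carry the sample numbers of the labels, the low-diet sample first, as L1/H1, L2/H3, L7/H7 and L8/H8. Cy5 marked the low-diet RNA of L1/H1 and of L7/H7, and Cy3 that of the other pairs. Whether a sample came from 1 mouse or several is not stated, so p-values speak for these 4 pairs only. Those of limma rest on the spread left after a dye term is fitted, moderated over all probes, and not on the full spread between pairs.

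The sodium pump, or Na,K-ATPase, moves sodium out of the cell and potassium in, and in tubule cells it sits in the basolateral membrane. Its alpha subunit splits ATP and carries the ions, and its beta subunit is needed for the alpha subunit to fold and reach the membrane. FXYD proteins are small membrane proteins that attach to the pump and tune its affinity for ions. FXYD2, the gamma subunit, is the form known best in the kidney, and in humans a dominant FXYD2 mutation causes renal magnesium loss. The pump keeps the voltage and the sodium gradient on which magnesium uptake in the distal convoluted tubule is thought to depend.

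The 10 markers listed for the distal convoluted tubule were above background in all samples, and 4 of them (Pvalb, Calb1, Trpm6 and Wnk1) rose on the low diet while 0 fell. By brightest probe, 4.88% of all named genes rose and 2.95% fell. Pvalb, the gene whose promoter drove the sorted reporter, had a log2 ratio of low over high diet of 2.27 ± 0.40 (SD, n = 4; limma, adjusted p = 0.0121). Of 10 proximal tubule markers 2 fell and 0 rose, and their median log2 ratio was -0.64. Their summed normalized level, on a linear scale, ranged over 3241 to 4166 in low-diet samples and 4143 to 9852 in high-diet samples. Each measured marker of endothelium (6), smooth muscle and fibroblasts (6), leukocytes (6) and glia (3 of 5) was above background in at least 1 sample, and 0 of them passed the test by its brightest probe. A dimmer probe of the leukocyte marker Csf1r passed (0.61; limma, adjusted p = 0.0279), while its brightest probe had -0.21 and another dimmer probe 0.048. Of 5 markers of the thick ascending limb, the segment upstream, Umod and Kcnj1 rose and Ptger3 fell, while Slc12a1 (0.17) and Cldn16 (0.012) did not pass. The median log2 ratio of the 5 was 0.17. Their summed level ranged over 69182 to 95084 in low-diet samples and 27877 to 51035 in high-diet samples. Umod and Kcnj1 had the brightest spots, with a median pixel up to 54987.5 and 48656, and so weigh most in this sum. Between 65.5% and 97.4% of probes were above background in a sample, and Cy5 was saturated at 26 to 51 spots of an array. The precision is limited by the number of arrays.

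Start regions of 6 of the 8 genes were in RefSeq's promoter windows for GRCm38.p6, 7 windows in all, since Atp1b3 has 2 starts. Fxyd2 and Atp1b2 are named only. The 250 bases before the start are printed for both beta subunit genes with a window and for Fxyd4, the FXYD gene whose window held a GC box. Capitals mark GC boxes (GGGCGG, read on both strands), the element bound by factors of the Sp1 family.
Atp1b1 (GRCm38.p6, chr1:164458356-164458605, minus strand): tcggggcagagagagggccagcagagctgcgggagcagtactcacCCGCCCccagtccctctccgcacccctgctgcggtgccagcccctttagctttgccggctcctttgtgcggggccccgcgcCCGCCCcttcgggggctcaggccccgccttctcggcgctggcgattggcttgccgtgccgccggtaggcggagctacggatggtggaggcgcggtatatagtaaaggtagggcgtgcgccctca
Atp1b3, first start (GRCm38.p6, chr9:96364432-96364681, minus strand): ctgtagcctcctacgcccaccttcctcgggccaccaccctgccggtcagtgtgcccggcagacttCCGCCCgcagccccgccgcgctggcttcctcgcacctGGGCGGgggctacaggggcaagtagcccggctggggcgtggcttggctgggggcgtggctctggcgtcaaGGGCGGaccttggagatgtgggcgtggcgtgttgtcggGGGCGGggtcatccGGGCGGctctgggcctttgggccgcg
Fxyd4 (GRCm38.p6, chr6:117937336-117937585, minus strand): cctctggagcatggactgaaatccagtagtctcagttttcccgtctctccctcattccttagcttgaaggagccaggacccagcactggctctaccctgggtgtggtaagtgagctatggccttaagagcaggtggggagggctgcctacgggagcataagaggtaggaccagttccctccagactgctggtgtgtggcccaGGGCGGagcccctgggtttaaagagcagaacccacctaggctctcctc

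The beta subunit windows were rich in G and C, at 70.4% for Atp1b1 and 73.6% and 76.8% for the starts of Atp1b3, while the FXYD windows lay between 50.4% for Fxyd6 and 58% for Fxyd4. The median of all 32851 windows was 52.4% and the upper quartile 61.2%. GC boxes numbered 2 before Atp1b1, 5 before the first and 0 before the second start of Atp1b3, and 1 before Fxyd4, and 32.7% of all windows held at least 1. The letters TATAAA were in 0 of the 7 windows and in 12.4% of all, and GTTAAT, a core element of HNF1 sites, in 0 of the 7 and in 6.43% of all, on either strand. TGTTCT, a core element for the glucocorticoid and mineralocorticoid receptors, was in 0 of the 7 windows and in 16.1% of all, and TGACG, a core element for cAMP-responsive factors, was once before the first start of Atp1b3 and in 17.8% of all. No motif overlapped another in these windows. These matches describe letters in a window, and binding was not measured.

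The question for the 8 genes was whether pump subunits or their FXYD partners differed between the diets. None of the 11 probes passed the threshold of an adjusted p under 0.05 in limma, where 5.82% of all probes did, 3.48% higher and 2.35% lower on the low diet. At an unadjusted p under 0.05 there were 4 of 11 (Atp1b1, the bright Atp1b3 probe and both Fxyd2 probes), where 21.5% of all probes did. Of these, 2 were higher, against 11.3% of all probes, and 2 lower, against 10.3%. The authors' deposited table lists 0 of the 11 with a p under 0.05. Only 287 probes in all have such a p there, where 2296 of 39429 passed in limma. The 0 of 11 is therefore not particular to these genes. By brightest probe, 3 genes had a mean log2 ratio above 0 (Atp1b1, Atp1b3 and Fxyd1) and 5 below 0, with a median of -0.030 over the 8 genes against 0.0017 over all named genes. Each ratio here is turned against that of the authors' deposited table, so a positive log2 value means more transcript on the low-magnesium diet. The ratio had the same sign in all 4 pairs for 3 of 11 probes, both of Atp1b3 and that of Fxyd4, where 24.6% of all probes did. Levels of the diets did not overlap for 0 of 11 probes, where 7.6% of all probes were so.

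**Figure D1:**
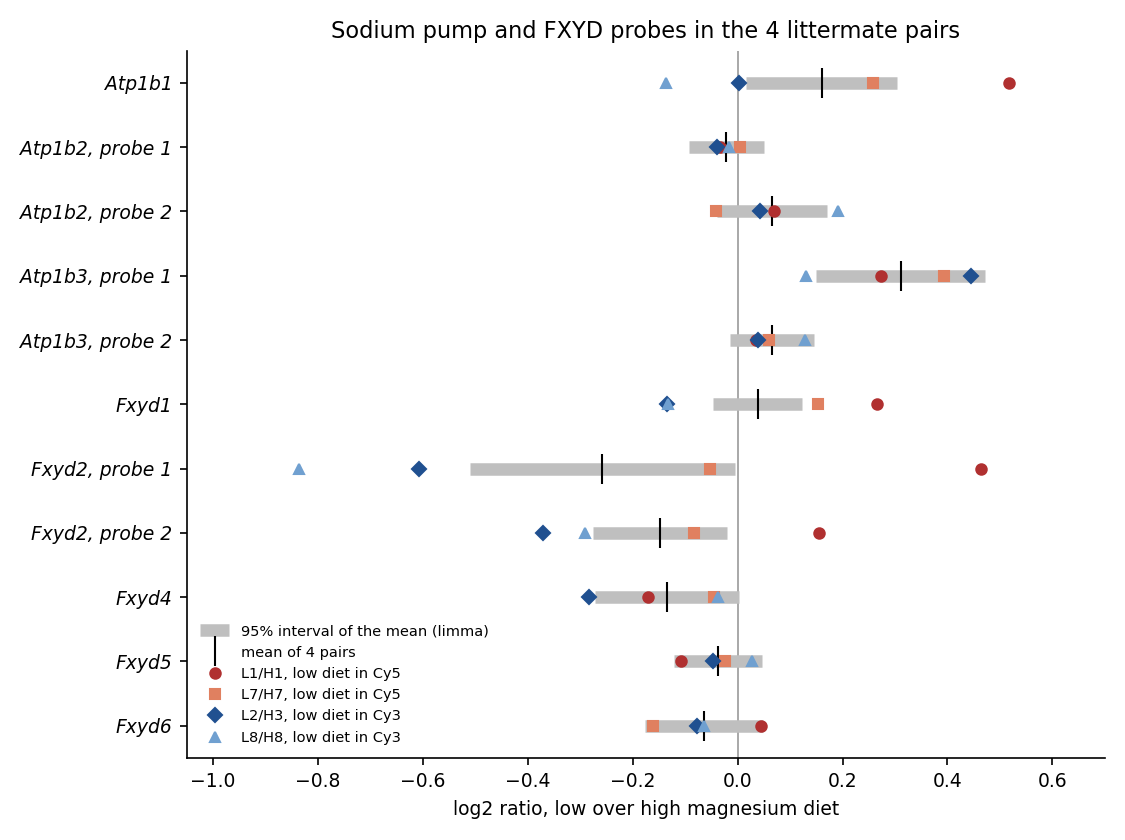
Log2 ratio of low over high diet (horizontal axis) for each of the 11 probes (rows), with a symbol for each of the 4 pairs, a tick for their mean and a grey bar for limma's 95% interval. Atp1b3 probe 1 lies above 0 in all 4 pairs, and Fxyd2 probe 1 spreads from -0.84 to 0.46.

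Among the beta subunits, Atp1b3, which encodes the beta 3 form, stood nearest to the threshold. By its brighter probe the normalized log2 level was 11.85 in L1, 12.05 in L2, 11.88 in L7 and 12.09 in L8 on the low diet, against 11.58 in H1, 11.60 in H3, 11.49 in H7 and 11.96 in H8 on the high diet. Only the sample H8 of the high diet reached into the range of the low-diet samples. The log2 ratios were 0.27 in L1/H1, 0.45 in L2/H3, 0.39 in L7/H7 and 0.13 in L8/H8. Their mean was 0.31 ± 0.14 (SD, n = 4; 1.24-fold), with a 95% interval of 0.15 to 0.47 and an adjusted p of 0.0633 (limma), above 0 in 4 of 4 pairs. Both dye orientations gave nearly the same mean, 0.33 with the low diet in Cy5 and 0.29 with it in Cy3.

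The call for Atp1b3 changed with the processing. The probe passed with median pixel signal (log2 ratio 0.31, adjusted p = 0.0491), with a normexp offset of 20 (0.32, adjusted p = 0.0449) and with the authors' deposited processed ratios (0.34, adjusted p = 0.0433). Leaving out a pair gave 0.23 to 0.39 and no call. The dimmer Atp1b3 probe had log2 ratios of 0.035, 0.038, 0.060 and 0.13 in L1/H1, L2/H3, L7/H7 and L8/H8, a mean of 0.065 ± 0.043 (SD, n = 4; adjusted p = 0.320). This mean was 0.17 with plain background subtraction and 0.043 without L8/H8, with no call. Its scan signal lay near background, between 41.6 and 91.2 above it. The 2 probes thus had the same sign and differed in size.

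Atp1b1 encodes the beta 1 form, the main beta subunit of the kidney. Its log2 level was 13.51 in L1, 13.37 in L2, 13.44 in L7 and 13.45 in L8, against 12.99 in H1, 13.37 in H3, 13.18 in H7 and 13.59 in H8. The low-diet samples lay close together, and the high-diet samples lay on both sides of them. The log2 ratios were 0.52 in L1/H1, 0.0026 in L2/H3, 0.26 in L7/H7 and -0.14 in L8/H8, with a mean of 0.16 ± 0.29 (SD, n = 4; 95% interval 0.016 to 0.30; adjusted p = 0.191). The mean was 0.39 over the pairs with the low diet in Cy5 and -0.067 over those with it in Cy3. Here the spread between pairs exceeded the mean ratio. The deposited processed ratios of the authors ran from 0.12 to 0.32 over the 4 pairs for this probe, all above 0.

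Atp1b2, the beta 2 form, is best known from glia, where it was found as an adhesion molecule. Its brighter probe had levels from 7.63 to 7.85 in low-diet samples and from 7.65 to 7.86 in high-diet samples. The log2 ratios were -0.034, -0.040, 0.0039 and -0.016 in L1/H1, L2/H3, L7/H7 and L8/H8, with a mean of -0.022 ± 0.020 (SD, n = 4; adjusted p = 0.738). The 95% interval ran from -0.093 to 0.050, and the diets overlapped in level. The dimmer probe had ratios from -0.042 to 0.19 and a mean of 0.065 ± 0.096 (SD, n = 4; adjusted p = 0.451). The probes differed in sign. Over the alternatives the first lay between -0.044, with plain background subtraction, and 0.011, with median centring, and the second between 0.028, without L8/H8, and 0.10, without L2/H3.

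**Figure D2:**
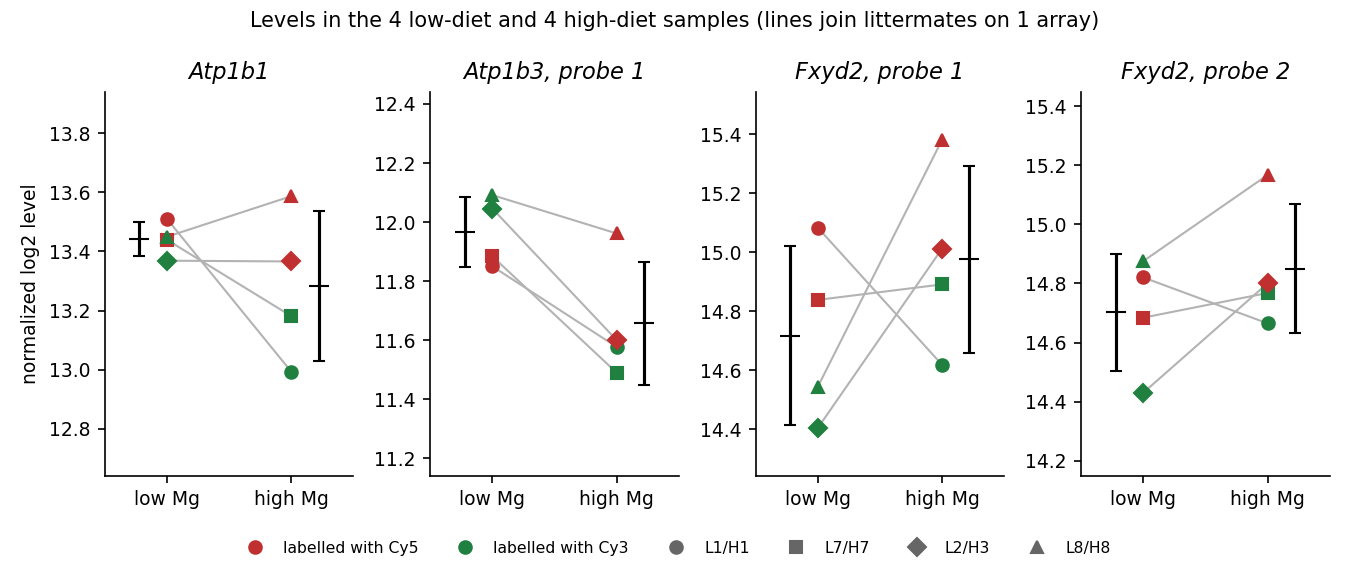
Normalized log2 level (vertical axis, the same span in each panel) of Atp1b1, Atp1b3 probe 1 and both Fxyd2 probes in the 4 low-diet and the 4 high-diet samples, with a line joining the littermates of an array, a colour for the dye and mean ± SD beside each group. Atp1b3 is higher in the low-diet sample of all 4 pairs, and Fxyd2 is brighter in whichever sample carries Cy5 on 3 of 4 arrays.

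Fxyd2, the gamma subunit gene, gave spots near the top of the scan range. By probe 1 the log2 level was 15.08 in L1, 14.40 in L2, 14.84 in L7 and 14.54 in L8, against 14.62 in H1, 15.01 in H3, 14.89 in H7 and 15.38 in H8. The groups overlapped, and the sample in Cy5 was the higher one in L1/H1, L2/H3 and L8/H8. The log2 ratios were 0.46 in L1/H1, -0.61 in L2/H3, -0.052 in L7/H7 and -0.84 in L8/H8. Their mean was -0.26 ± 0.58 (SD, n = 4), with a 95% interval of -0.51 to -0.0059 after removal of the dye effect and an adjusted p of 0.223 (limma), below 0 in 3 of 4 pairs.

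The second Fxyd2 probe followed the first with smaller ratios. Its log2 level was 14.82 in L1, 14.43 in L2, 14.68 in L7 and 14.88 in L8, against 14.66 in H1, 14.80 in H3, 14.77 in H7 and 15.17 in H8. The ratios were 0.16 in L1/H1, -0.37 in L2/H3, -0.084 in L7/H7 and -0.29 in L8/H8, with a mean of -0.15 ± 0.24 (SD, n = 4; 95% interval -0.28 to -0.019; adjusted p = 0.179). Both probes were lowest on the arrays with the high-diet sample in Cy5 and highest on L1/H1.

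Dye and brightness moved with the Fxyd2 ratios. For probe 1 the mean ratio was 0.21 with the low diet in Cy5 and -0.72 with it in Cy3, a gap of 0.93, while the median gap over all probes was 0.089. Probe 1 was brighter than 99.9% of probes, so that median is not one of like probes. Among other bright member probes the gap was 0.46 for Atp1b1, 0.37 for Fxyd2 probe 2 and 0.046 for Atp1b3 probe 1. The dye term of the fit had an unadjusted p of 0.00565 and an adjusted p of 0.158 for probe 1. For 0 of the 11 probes did the adjusted p of the dye term pass, where 0.00507% of all probes did, and 4 had an unadjusted p under 0.05 (Atp1b1, Fxyd1 and both of Fxyd2), where 16.8% of all did. A dye effect cannot be told apart from a difference between the pairs of the 2 orientations. Among samples in Cy3, probe 1 ranged over 14.40 to 14.54 on the low diet and 14.62 to 14.89 on the high diet, without overlap. Among samples in Cy5 it ranged over 14.84 to 15.08 on the low diet and 15.01 to 15.38 on the high diet, with overlap. Probe 2 overlapped in both dyes, at 14.43 to 14.88 on the low diet and 14.66 to 14.77 on the high diet in Cy3. Each dye holds only 2 samples of a diet, and the share of all probes without such overlap is not given, so nothing is concluded from it.

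No Fxyd2 spot was saturated, taken as a median pixel of 65000 or more, but several came near it. The median pixel of probe 1 in Cy5 stood at 78.0% of that limit in L1, 55.1% in L7, 72.9% in H3 and 91.6% in H8, and in Cy3 at 21.2% in L2, 28.4% in L8, 28.5% in H1 and 40.0% in H7. Probe 2 reached 80.9% in H8 and 65% in L1. A median pixel of 50000 or more was taken as near saturation, a limit chosen after the data were seen. Probe 1 passed it in L1 and H8 and probe 2 in H8. Without these arrays the mean log2 ratio of probe 1 was -0.33 over the 2 pairs left, 1 of each dye orientation, a value with no test. For probe 2 the fit with its dye term over the 3 pairs left gave -0.17 (limma, adjusted p = 0.325), while their plain mean, which holds the dye effect, was -0.10. The other 7 genes stayed below it, with a median pixel of at most 17955, in Atp1b1.

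**Figure D3:**
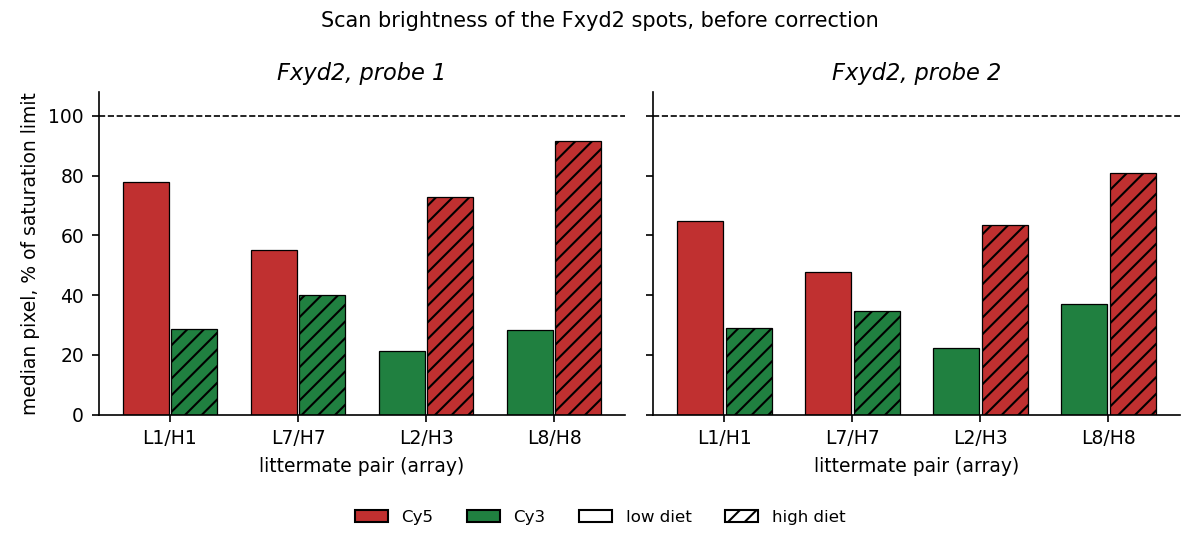
Median pixel of the Fxyd2 spots as a percentage of the saturation limit (vertical axis), for the low-diet (plain) and high-diet (hatched) sample of each pair, in Cy5 (red) or Cy3 (green). Cy5 is the brighter channel on all 4 arrays, up to 91.6% for the high-diet sample of L8/H8.

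The Fxyd2 call also changed with the processing. With median centring in place of loess both probes passed, at -0.34 (adjusted p = 0.0336) and -0.23 (adjusted p = 0.0329). Leaving out a pair gave -0.39 to -0.13 for probe 1, lowest without L1/H1 and highest without L7/H7, and -0.21 to -0.088 for probe 2, with no call. The authors' deposited processed ratios for probe 1, turned to low over high diet, were 0.051 in L1/H1, -0.10 in L2/H3, -0.42 in L7/H7 and -0.32 in L8/H8. Those from the scans put L7/H7 nearest to 0, so the order of the pairs differed between the 2 sets of values. In the authors' deposited table the log2 ratio of probe 1, there high over low, is 0.20 with a p of 1, a value listed there for 37011 probes. In these pooled fragments, fewer cells of a kind and less transcript per cell cannot be told apart. The proximal tubule markers had median log2 ratios of -1.16 in L1/H1, -0.94 in L2/H3, -0.17 in L7/H7 and -0.29 in L8/H8. The thick ascending limb markers had medians of -0.16, 0.23, 0.0036 and 0.36 in the same order. The part of either in the Fxyd2 ratio was not tested.

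**Figure D4:**
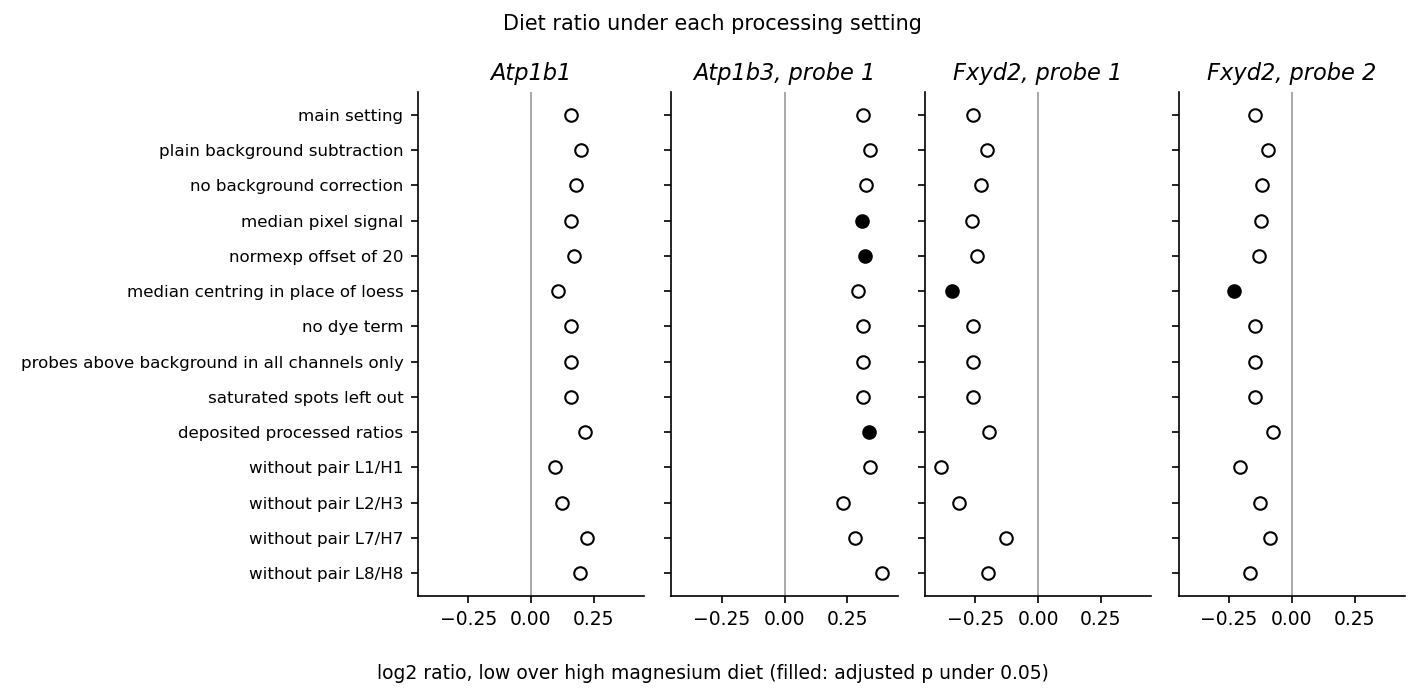
Log2 ratio of low over high diet (horizontal axis) for Atp1b1, Atp1b3 probe 1 and both Fxyd2 probes under the main setting and 13 alternatives (rows), filled where the adjusted p was under 0.05. Atp1b3 is filled in 3 rows and the Fxyd2 probes in 1 row each, and the sign of these 4 probes stays the same in all rows.

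Beta subunit and gamma subunit transcripts were also set against each other within each array. Atp1b1 minus Fxyd2, by the brightest probes, was 0.053 in L1/H1, 0.61 in L2/H3, 0.31 in L7/H7 and 0.70 in L8/H8 on the log2 scale, above 0 in 4 of 4 pairs. The mean was 0.42 ± 0.30 (SD, n = 4), with a 2-sided exact sign-flip permutation p of 0.125, the smallest that 4 pairs allow. Atp1b3 minus Fxyd2 was -0.19, 1.05, 0.45 and 0.97 in the same order of pairs, with a mean of 0.57 ± 0.57 (SD, n = 4; exact permutation p = 0.25). Atp1b3 minus Atp1b1 averaged 0.15 ± 0.29 (SD, n = 4; exact permutation p = 0.375). Over these 3 comparisons every adjusted p was 0.375, and with 4 pairs none could have passed 0.05, so the test does not say whether the genes differed in their change. The first 2 differences contain Fxyd2 probe 1, with its dye gap and its spots near saturation.

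Of the other FXYD genes, Fxyd1 encodes phospholemman, a target of protein kinases A and C known best from heart and muscle. Its log2 level was 8.89 in L1, 8.66 in L2, 8.91 in L7 and 8.45 in L8, against 8.62 in H1, 8.80 in H3, 8.76 in H7 and 8.58 in H8. The ratios were 0.27 in L1/H1, -0.14 in L2/H3, 0.15 in L7/H7 and -0.13 in L8/H8, above 0 on both arrays with the low diet in Cy5. The mean of 0.038 ± 0.20 (SD, n = 4; adjusted p = 0.595) had a 95% interval of -0.046 to 0.12. It lay between 0.0096, without L1/H1, and 0.084, with median centring, with no call.

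Fxyd4 encodes CHIF, a corticosteroid-induced FXYD protein of the collecting duct that raises the pump's affinity for sodium. Its ratio was below 0 in 4 of 4 pairs, at -0.17 in L1/H1, -0.28 in L2/H3, -0.046 in L7/H7 and -0.037 in L8/H8. The mean was -0.13 ± 0.12 (SD, n = 4; 95% interval -0.27 to 0.0028; adjusted p = 0.241). Its spots were dim, at 16.5 to 62.8 above local background, and the low-diet sample L8, at 50.9, did not pass the background limit. That limit is set within each channel by a dim control, and L8 had the lowest share of probes past it, 65.5%. Over the 12 alternatives run for it the mean lay between -0.46, with plain background subtraction, and -0.073, without L2/H3, and 0 gave a call. Principal cell markers, the cells in which Fxyd4 is known, had 1 of 6 members lower and a median of 0.0064, and that member (Avpr2) had saturated spots. The Avpr2 ratios were 0.49 in L1/H1, -1.28 in L2/H3, 0.63 in L7/H7 and -1.38 in L8/H8, so their sign followed the dye. A dimmer Avpr2 probe did not pass (0.026; limma, adjusted p = 0.817).

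Fxyd5, which encodes dysadherin, a protein that loosens cell adhesion, was dim as well and did not pass the background limit in L8. Its scan signal there, 43.8 above local background, was nevertheless its highest, so the miss reflects the limit of that channel and not a lower signal. Its ratios ran from -0.11 in L1/H1 to 0.028 in L8/H8, with a mean of -0.038 ± 0.056 (SD, n = 4; adjusted p = 0.594). Over the alternatives it lay between -0.22, with plain background subtraction, and -0.0043, with median centring, with no call. Fxyd6 encodes phosphohippolin, known from brain and inner ear. Its log2 level ran from 8.20 to 8.28 in low-diet samples and from 8.15 to 8.38 in high-diet samples. Its ratios ran from -0.16 in L7/H7 to 0.046 in L1/H1, with a mean of -0.064 ± 0.085 (SD, n = 4; 95% interval -0.18 to 0.048; adjusted p = 0.489). It lay between -0.12, with plain background subtraction, and -0.013, without L7/H7, with no call.

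Relatives of these genes outside the 8 were looked at as a list. Of the 7 analysed here, 1 fell and 0 rose. Atp4a, the catalytic subunit of the gastric proton pump, which is also found in the collecting duct, had log2 ratios of -0.76 in L1/H1, -0.53 in L2/H3, -0.43 in L7/H7 and -0.65 in L8/H8, with a mean of -0.59 ± 0.14 (SD, n = 4; adjusted p = 0.0207). It did not pass without L1/H1, L2/H3 or L8/H8. The partner subunit gene Atp4b had a mean of -0.070 ± 0.14 and Atp12a, the alpha subunit of the colonic proton pump, 0.024 ± 0.080. Fxyd3 had ratios of 0.084 to 0.14 in the 4 pairs (mean 0.11 ± 0.022; adjusted p = 0.102). Fxyd7 had a mean of 0.0072 ± 0.092, Atp1a4 of 0.015 ± 0.086 and Atp1b4 of -0.095 ± 0.18, with adjusted p between 0.187 and 0.929.

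The transporters through which sodium enters at the luminal side showed 0 of 7 genes past the threshold, with a median log2 ratio of -0.020. Slc12a3, the sodium chloride cotransporter of this segment, had a mean of 0.13 ± 0.27 and Scnn1a, the alpha subunit of the epithelial sodium channel, of -0.16 ± 0.24 (SD, n = 4; adjusted p = 0.125). By brightest probe 7.82% of all named genes passed, 4.88% higher and 2.95% lower. Among 11 measured genes of basolateral exit 2 rose and 0 fell, namely Slc41a3, a member of the SLC41 family of magnesium transporters, at 0.84 ± 0.16, and Cnnm2, a membrane protein whose mutations cause renal magnesium loss, at 0.71 ± 0.27 (SD, n = 4). The potassium channel genes Kcnj10 and Kcnj16, which recycle the potassium the pump brings in, had means of 0.047 ± 0.18 and 0.21 ± 0.13, with adjusted p of 0.674 and 0.129.

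Of 15 genes of hormone and kinase control of the pump, 3 rose and 1 fell, and 11 did not pass. Sgk1, the aldosterone-induced kinase that raises pump and channel number at the membrane, fell by 0.75 on the log2 scale (SD 0.45, n = 4; adjusted p = 0.0177). The ratios of Sgk1 were -1.29 in L1/H1, -0.49 in L2/H3, -0.95 in L7/H7 and -0.28 in L8/H8. Wnk1, a kinase upstream of the sodium chloride cotransporter, rose by 0.67 ± 0.48, Prkacb, a catalytic subunit of protein kinase A, by 0.40 ± 0.15, and the ubiquitin ligase gene Nedd4l by 0.34 ± 0.16 (SD, n = 4; adjusted p between 0.0277 and 0.0482). A second Prkacb probe also passed (0.29, adjusted p = 0.0258), while the dimmer probes of Wnk1 (0.058 and 0.11) and Nedd4l (-5.12e-04 and 0.20) did not. Pdpk1, a kinase that activates Sgk1, did not pass by its brightest probe (0.30 ± 0.18, adjusted p = 0.0577), while 1 of its 2 dimmer probes passed (0.23, adjusted p = 0.0340) and the other did not (-0.017). Nr3c2, the mineralocorticoid receptor gene, had a mean of -0.0035 ± 0.0067 and Nr3c1, the glucocorticoid receptor gene, of -0.19 ± 0.23.

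HNF1 factors are known to drive Fxyd2 in the kidney, and 2 of 4 genes of that list were measured. Pcbd1, a cofactor of HNF1, rose by 1.08 ± 0.24 (SD, n = 4; adjusted p = 0.0129), in 4 of 4 pairs, and its relative Pcbd2 had a mean of -0.12 ± 0.12. The Pcbd1 ratios were 1.03 in L1/H1, 1.07 in L2/H3, 1.40 in L7/H7 and 0.82 in L8/H8, beside 0.46, -0.61, -0.052 and -0.84 for Fxyd2 probe 1 in the same order. Of 7 genes of pump assembly and anchoring 2 rose and 1 fell. Canx, the chaperone calnexin, which binds newly made beta subunits, had a mean of 0.34 ± 0.27 (SD, n = 4; limma, adjusted p = 0.0398). Sptbn1, a spectrin of the membrane skeleton, had a mean of 0.28 ± 0.31 (SD, n = 4; limma, adjusted p = 0.0396). Both were below 0 in L8/H8, at -0.0068 for Canx and -0.082 for Sptbn1. Ank2, an ankyrin, had a mean of -0.51 ± 0.24 (SD, n = 4; adjusted p = 0.0210). The dimmer probes of Sptbn1 and Ank2 lay between -0.018 and 0.10 and did not pass. Ank3, the ankyrin that links the pump to the skeleton in epithelia, had a mean of -0.10 ± 0.17.

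**Figure D5:**
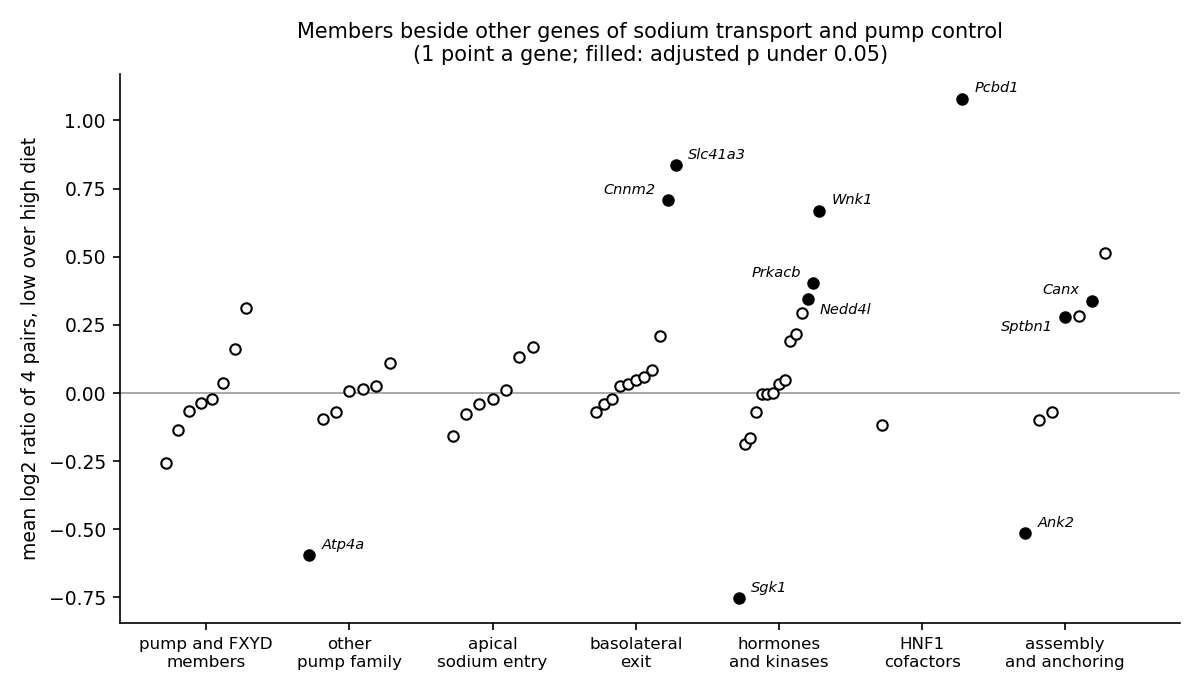
Mean log2 ratio of low over high diet (vertical axis) for each gene by its brightest probe, for the 8 sodium pump and FXYD genes and 6 related lists (columns), filled where the adjusted p was under 0.05. The 8 genes hold 0 filled points, between -0.26 and 0.31, and the lists, chosen with earlier results of these data known, hold 11. By brightest probe 7.82% of all named genes passed, so the 0 of 8 is not read as particular to them.

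These list calls rested on few arrays. Of the 11 called genes 1 stayed past the threshold without L1/H1 (Pcbd1), 3 without L2/H3, 5 without L7/H7 and 1 without L8/H8 (Slc41a3). Without the dye term 4 stayed (Pcbd1, Atp4a, Cnnm2 and Slc41a3). Among 16047 other genes above background on all arrays and below saturation, the 4 ratios of Fxyd2 were most like those of Banp, Iqcg and Uqcrh, by a root mean square difference of 0.065 to 0.088 on the log2 scale. The ratios of Banp were 0.52, -0.56, -0.16 and -0.81 in L1/H1, L2/H3, L7/H7 and L8/H8. Those of Atp1b1 were most like Slc19a2, Klhl12 and Fgf9, at 0.045 to 0.053. This likeness is over 4 pairs only, and all 6 genes had an adjusted p for diet between 0.186 and 0.410.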

How the data were processed

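Per the labels' protocols, cRNA amplified in 2 rounds was coupled to Cy3 or Cy5. The authors deposited scans with mean and median pixel intensity per spot, without background correction, and processed log2 ratios per array, whose normalization the sources do not give. The medians of these ratios over the probes tested were 0.0048 (L1/H1), -0.0012 (L2/H3), -0.0040 (L7/H7) and 0.0043 (L8/H8). Their scale and direction were found against the scans, with r between 0.808 and 0.848 over the brighter probes, taking scan channel 1 as Cy5. A table from maanova, per the file headers, gives the authors' mean log2 ratio with its p-value. No source says if it was adjusted.

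From the scans, mean signals were corrected with normexp (offset 50) and normalized by loess, with 5791 control spots at weight 0. limma 3.58.1 in R 4.3.3 fitted diet and a dye intercept over 39429 probes, with 2 residual and 2.68 prior degrees of freedom, 2-sided, adjusted by Benjamini-Hochberg at 0.05. The array is the pair. A printed SD is that of the 4 turned ratios and so includes any dye effect, while intervals and p-values come from the fit. Levels were scaled between arrays by Aquantile, which leaves ratios unchanged, and are not compared between probes. A channel was above background past the 99th percentile, in that channel, of a dim control with 604 spots. In lists a gene was represented by its brightest probe; list genes past the threshold and all relatives of the pump were named, and the other list and marker genes given were chosen after their values were seen. The fit was tested on simulated data with 50 changed probes of each size. Of these, 24% were called at a log2 change of 0.3 and 76% at 0.6. Such shares depend on how many probes change. A member without a call is therefore not shown to be unchanged. Members and lists were chosen with earlier results of these data known. Alternatives were other background corrections, offsets, centring, no dye term, filters and each pair left out.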

Additional observations from a re-analysis of the deposited data

How the results depend on the processing

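Over all probes 2296 passed, against 279 with plain background subtraction (73.1% of them higher on the low diet, against 59.7%), 824 without the dye term (69.3% higher), and 83 (without L1/H1), 863 (without L2/H3), 437 (without L7/H7) and 225 (without L8/H8) when a pair was left out. Of the 11 sodium pump and FXYD probes 0 passed, against 1 (Atp1b3) with median pixel signal, 1 (Atp1b3) with a normexp offset of 20, 1 (Atp1b3) with the deposited processed ratios and 2 (both Fxyd2 probes) with median centring in place of loess. Without any pair the count stayed at 0, as it did under the other alternatives. A dye effect passed for 0 of these probes, and for 8 with median centring. The share of all probes with a dye effect under median centring is not given, so the 8 are not read as particular to these genes. The cause of these changes was not tested. Among the 11 probes and these alternatives, 1 sign turned, that of the brighter Atp1b2 probe with median centring (0.011). Among the relatives, signs turned when a pair was left out for Atp1a4 (-0.024 to 0.055 over the pairs left out), Fxyd7 (-0.0067 to 0.021) and Atp12a (-0.017 to 0.065), none past the threshold. With probes averaged per gene, 1 gene of assembly and anchoring passed in place of 3. Dim spots limit Fxyd4 and Fxyd5, and near saturation limits Fxyd2. No fit with a replicate block was added because each array already holds its littermate pair.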
